A study of Mus musculus with 15 samples.

Results

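The nuclear factor I (NFI) family consists of the 4 transcription factor genes *Nfia*, *Nfib*, *Nfic*, and *Nfix*, which were chosen by name and are all among the 19475 genes of the table. Their values come from RNA-Seq of the brains of mouse embryos at E16.5, described as brain in the sample labels and the study's methods, as whole brain in the series text, and as forebrain where the study gives its results. There were 5 WT embryos, 5 embryos with a single copy of the K228E allele of *Tbr1* (*Tbr1* +/K228E, here heterozygotes), and 5 embryos with the mutation on both copies (*Tbr1* K228E/K228E, here homozygotes). Each genotype held 3 females and 2 males. *Tbr1* encodes a T-box transcription factor of deep-layer cortical neurons, and K228E changes a residue of its DNA-binding domain. The mutation was knocked in on a C57BL/6J background in every cell of the mouse, the selection cassette had been removed with a Cre that acts in the male germ line, and the labels name no other allele or treatment. Each embryo is a separate animal, but litters were not given in the sources used here.

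NFI proteins bind DNA as dimers with one another, through an N-terminal domain that is nearly the same in all family members, and they can activate or repress the genes that they bind. In the embryonic forebrain they drive radial glia, the stem cells of the cortex, away from self-renewal and toward neurons and glia, and they turn on astrocyte genes. NFIA is known for the switch from making neurons to making glia, NFIB for the axon tracts of the forebrain and the maturation of the lung, and NFIX for the timing of progenitor division and differentiation. NFIC is better known outside the brain, in tooth root formation.

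Because the DNA-binding domain is so alike, it is the stretch in which reads of one member could be taken for another, and the coding bases below show how far the genes can be told apart there. They are 60 bases of exon 2 of GENCODE M21 transcripts on GRCm38, from the coding strand, and capitals mark the 12 positions at which the 4 genes do not all have the same base. The windows lie at chr4:97783139-97783198 (plus strand) in *Nfia*, chr4:82498653-82498712 (minus strand) in *Nfib*, chr10:81420682-81420741 (minus strand) in *Nfic*, and chr8:84772199-84772258 (minus strand) in *Nfix*.
Nfia: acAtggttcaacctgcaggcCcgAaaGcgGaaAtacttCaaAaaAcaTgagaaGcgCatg
Nfib: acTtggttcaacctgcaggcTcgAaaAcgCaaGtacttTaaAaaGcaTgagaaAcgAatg
Nfic: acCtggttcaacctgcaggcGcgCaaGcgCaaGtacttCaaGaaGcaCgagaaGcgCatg
Nfix: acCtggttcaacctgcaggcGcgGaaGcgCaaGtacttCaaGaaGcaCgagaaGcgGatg
All 12 differing positions are the third base of a codon, and the other 48 bases are identical in all 4 genes. Within this window *Nfic* and *Nfix* differ at 2 positions, and every other pair differs at 8 or 9. Over the whole coding sequence, 70.8% to 74.9% of aligned bases were identical between members. The longest identical run was 32 bases, between *Nfic* and *Nfix*, and at most 21 bases for any other pair.

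The annotated transcripts of *Nfia* and *Nfib* share no stretch of 31 bases with another NFI gene on either strand, and those of *Nfic* and *Nfix* share 2 such stretches, 0.03% and 0.027% of their own. The values of the 4 genes therefore rest almost entirely on sequence that only 1 member has. Of the stretches of *Nfix*, 1.62% also occur in transcripts of another gene outside the family, mostly (111 of 120) in *G430095P16Rik*, which overlaps *Nfix* on the opposite strand, and for the other 3 members the share was at most 0.674%. The mean normalized read count of *G430095P16Rik* was 13.7, and that of *Nfix* was 11357. *E130114P18Rik* overlaps *Nfia* on the opposite strand by 4 exonic bases, and *Lyl1* overlaps *Nfix* by 4. The kit that made the libraries does not mark the strand of a read, so that reads from overlapping bases cannot be assigned by strand.

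*Nfia* (ENSMUSG00000028565) spans chr4:97772734-98118874 on the plus strand of GRCm38, and *Nfib* (ENSMUSG00000008575) spans chr4:82290173-82705750 on the minus strand of the same chromosome. *Nfic* (ENSMUSG00000055053) spans chr10:81396186-81455635 and *Nfix* (ENSMUSG00000001911) spans chr8:84699876-84800344, both on the minus strand. Read counts in the table had been divided by a size factor for each embryo, and such normalized read counts are used throughout. For comparing one gene with another they were also divided by the length of the gene's exons in kilobases (kb).

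Per kb of exon, *Nfix* was the most highly expressed member in WT embryos, at 1539 ± 434 (SD, n = 5) normalized reads per kb. *Nfib* followed at 964 ± 283 (SD, n = 5) per kb, and *Nfia* at 269 ± 60.8 (SD, n = 5) per kb. *Nfic* was lowest, at 170 ± 15.9 (SD, n = 5) per kb. This order held within each of the 15 embryos, although over the WT embryos the intervals of 1 SD around the means of *Nfix* and *Nfib* overlapped. Among the 16503 tested genes with a length, *Nfix* and *Nfib* stood at percentiles 95.3 and 91.0 of the WT level per kb, and *Nfia* and *Nfic* at percentiles 64.5 and 52.6. *Nfix* made up 52.1% of the summed family level per kb in WT embryos, *Nfib* 32.6%, *Nfia* 9.26%, and *Nfic* 6.12%. With the length of the longest transcript in place of all exons, *Nfix* made up 49.8% and *Nfib* 38.0%, and the order again held in all 15 embryos.

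*Nfia* held a share of the family of 9.26% ± 1.05 (SD, n = 5) in WT embryos, of 8.47% ± 0.470 (n = 5) in heterozygotes, and of 7.26% ± 0.599 (n = 5) in homozygotes. It was the only member whose mean share was lower in each genotype with another mutant copy. The shares of *Nfib* were 32.6%, 32.8%, and 31.8%, and those of *Nfix* 52.1%, 53.5%, and 54.9%, in the same order.

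The mutated gene *Tbr1* had 3537 ± 1049 (SD, n = 5) normalized reads in WT, 6269 ± 1532 (n = 5) in heterozygous, and 11366 ± 3160 (n = 5) in homozygous embryos. A count per gene does not show the base change itself, so that these values do not check the labelled genotypes. The depth estimated from the lowest values was 26.2 to 38.0 M reads per embryo (M for megareads), which limits genes far below the level of the NFI family. Markers of brain regions and of the meninges varied strongly within genotypes. The summed count of 6 forebrain genes (*Emx1*, *Emx2*, *Neurod6*, *Dlx1*, *Dlx2*, and *Lhx2*) ran from 10625 to 26253 in WT, from 16465 to 26609.5 in heterozygotes, and from 12621 to 24562 in homozygotes. For 17 Hox genes, which mark hindbrain and spinal cord, it ran from 3.66 to 3963 over all embryos, and for 10 genes of the meninges from 508 to 32973. No gene of these lists, or of lists for endothelium, microglia, choroid plexus, and red blood cells, differed between genotypes past the threshold on the adjusted p.

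*Nfia* showed the largest difference between genotypes within the family. In WT embryos its normalized read counts were 2859, 3390, 3787, 2172, and 2456. The counts in heterozygotes were 2612, 3268, 2913, 2524, and 2583, and those in homozygotes were 2499, 1675, 2338, 1944, and 2101. All 5 homozygotes lay below the WT median and below the lowest heterozygote, and 3 of them lay below the lowest WT embryo. WT and heterozygous embryos overlapped throughout.

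**Figure D1:**
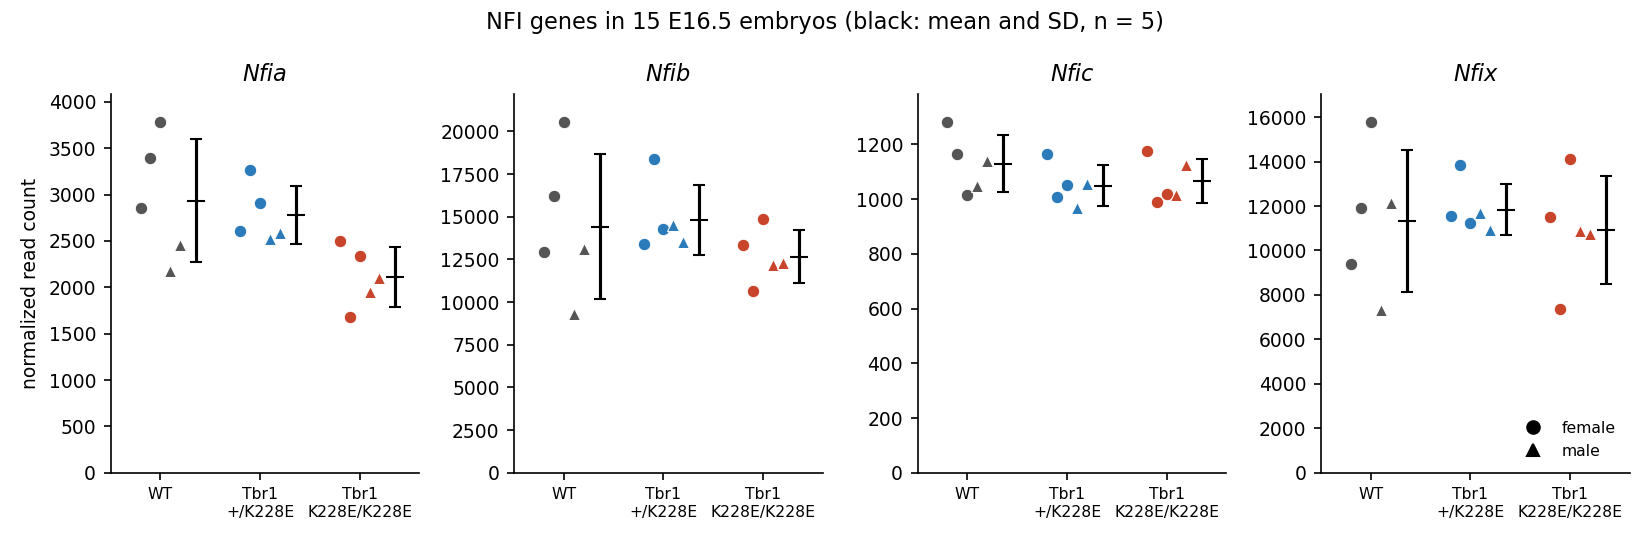
Normalized read counts (vertical axes, from 0) of the 4 NFI genes in each embryo by genotype, with circles for females and triangles for males; black bars give the mean and SD of 5 embryos. For *Nfia* the 5 homozygotes sit at 1675 to 2499, below the heterozygotes at 2524 to 3268 but overlapping with WT embryos at 2172 to 3787, and all genotypes overlap for *Nfib*, *Nfic*, and *Nfix*.

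The mean count of *Nfia* was 2933 ± 662 (SD, n = 5) in WT embryos, 2780 ± 312 (n = 5) in heterozygotes, and 2111 ± 324 (n = 5) in homozygotes. Between homozygotes and WT embryos the log2 fold change was −0.46 (standard error 0.14, 95% interval −0.76 to −0.16), or a change of −27.2%. The unadjusted p of limma, a linear model over all genes, was 0.00522, which made *Nfia* gene 95 of 16507 by p, and 3.23% of all tested genes had an unadjusted p under 0.05. After Benjamini–Hochberg (BH) correction over all genes the difference was not past the threshold of 0.05 (BH-adjusted p = 0.907, limma), whereas 21 genes (0.127%) were. The study itself, with DESeq2 and an empirically estimated null, counted *Nfia* among the genes lower in homozygotes at an adjusted p under 0.05. It also listed *Nfia* as lower in earlier data sets from *Tbr1*-null mice and from mice lacking *Tbr1* in a single cortical layer. The study found no significant association between these sets of genes by Fisher analysis. An exact permutation test of *Nfia* alone gave p = 0.0397 (two-sided, smallest possible 0.00794). After Benjamini–Hochberg correction over the exact tests of every member and comparison it was 0.238, not past the threshold.

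Between homozygotes and heterozygotes, *Nfia* had a log2 fold change of −0.40 (95% interval −0.70 to −0.11), with a BH-adjusted p of 0.996 by limma. The 2 genotypes did not overlap, which held in this direction for 0.388% of all tested genes. The exact permutation p was 0.00794, the smallest that 5 against 5 embryos allow. Corrected over the exact tests of every member and comparison, it was 0.0952, not past the threshold. Past the threshold on the adjusted p were 13 genes (0.0788%), and 3.3% had an unadjusted p under 0.05. Between heterozygotes and WT embryos the log2 fold change of *Nfia* was −0.05 (95% interval −0.35 to 0.25), and 0 genes (0%) passed correction by limma, with 295 (1.79%) at an unadjusted p under 0.05. A trend over the number of mutant copies gave −0.23 per copy (standard error 0.07) for *Nfia*, again not past correction (unadjusted p = 0.00603), while 12 genes (0.0727%) passed and 3.29% had an unadjusted p under 0.05.

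*Nfib* did not separate by genotype. Its normalized read counts were 12918, 16241, 20573, 9295, and 13091 in WT and 13399, 18374, 14298, 14509, and 13494 in heterozygotes. In homozygotes they were 13369, 10668, 14844, 12160, and 12292. The WT embryos held both the highest and the lowest value of all 15. The log2 fold change was −0.15 (95% interval −0.49 to 0.20) in homozygotes and 0.08 (95% interval −0.27 to 0.42) in heterozygotes relative to WT, neither past correction. The homozygous interval takes in the −0.46 of *Nfia* in homozygotes, and the heterozygous interval takes in the −0.05 of *Nfia* in heterozygotes.

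*Nfix* varied most between embryos on the log2 scale with the genotypes pooled. As SD over mean it did so only in homozygotes (22.1%, against 12.2% for *Nfib*). *Nfib* varied more in WT (29.3% against 28.2%) and in heterozygotes (13.8% against 9.72%). The counts of *Nfix* were 9390, 11922, 15799, 7325, and 12143 in WT and 11544, 13826, 11227, 11678, and 10913 in heterozygotes. They were 11486, 7351, 14126, 10895, and 10727 in homozygotes. The lowest WT and the lowest homozygous embryo lay side by side, as did the higher values of both genotypes. The log2 fold change relative to WT was −0.03 (95% interval −0.42 to 0.35) in homozygotes and 0.11 (95% interval −0.28 to 0.49) in heterozygotes. The homozygous interval stops short of the −0.46 of *Nfia* but overlaps the interval of *Nfia*.

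*Nfic* was the steadiest member. Its counts were 1283, 1166, 1016, 1047, and 1137 in WT, 1165, 1006, 1052, 966, and 1055 in heterozygotes, and 1175, 989, 1019, 1015, and 1124 in homozygotes. The genotypes overlapped, and every value lay within 966 to 1283. The log2 fold change relative to WT was −0.08 (95% interval −0.24 to 0.07) in homozygotes and −0.10 (95% interval −0.26 to 0.05) in heterozygotes. A decrease as large as that of *Nfia* in homozygotes lies outside the homozygous interval, which still overlaps the interval of *Nfia*. The SD of *Nfic* between embryos of a genotype was 0.11 on the log2 scale, below the median of 0.15 over all tested genes. It was 0.25 for *Nfia*, 0.29 for *Nfib*, and 0.32 for *Nfix*, at percentiles 67.2, 71.8, and 75.2 of all tested genes.

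Whether *Nfia* differed from its relatives was asked with ratios taken within each embryo, which remove what the genes share. *Nfic* shared little variation with *Nfia* (Pearson r = 0.138 after centering on genotype means), so that a ratio to *Nfic* removes little. The ratio of *Nfia* to *Nfib* was 0.221, 0.209, 0.184, 0.234, and 0.188 in WT and 0.195, 0.178, 0.204, 0.174, and 0.191 in heterozygotes. In homozygotes it was 0.187, 0.157, 0.158, 0.160, and 0.171. Of the homozygotes, 4 lay below every other embryo and 1 lay within the range of WT. The mean log2 ratio was 0.31 lower in homozygotes than in WT embryos (difference −0.31, exact permutation p = 0.0159). For *Nfia* to *Nfix* the difference was −0.42 (exact permutation p = 0.0317), and for *Nfia* to *Nfic* it was −0.37 (exact permutation p = 0.0635). None of the 18 comparisons of 6 ratios passed the Benjamini–Hochberg correction over the 18 (smallest adjusted p of the permutation tests 0.143). The ratio of *Nfib* to *Nfix* differed by −0.11 on the log2 scale between the same genotypes (exact permutation p = 0.286).

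**Figure D2:**
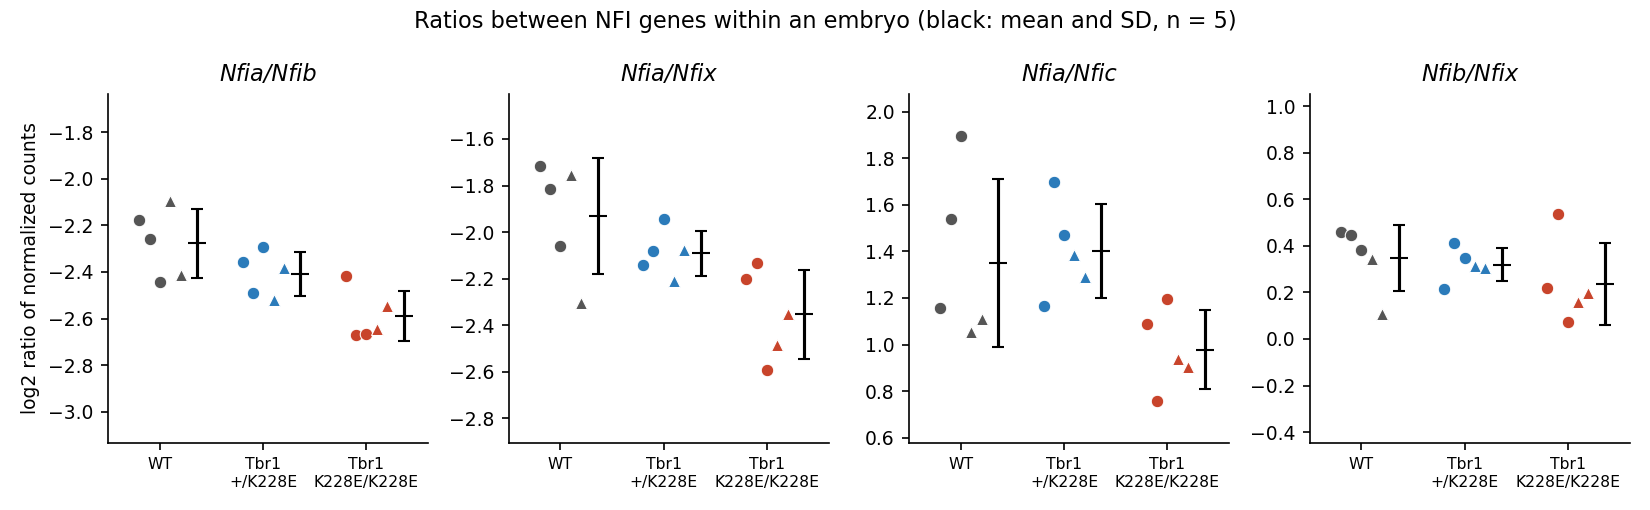
Log2 ratios of normalized counts (vertical axes, each spanning the same distance) for 4 pairs of NFI genes in each embryo by genotype, with circles for females, triangles for males, and black bars for the mean and SD of 5 embryos. The 3 ratios with *Nfia* as numerator are lowest on average in homozygotes, and the ratio of *Nfib* to *Nfix* overlaps between all genotypes.

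*Nfia*, *Nfib*, and *Nfix* were high and low in the same embryos, and *Nfic* was not. After centering on the genotype means, log2 values of *Nfib* correlated over the 15 embryos with those of *Nfia* (Pearson r = 0.911, Spearman rho = 0.829) and *Nfix* (r = 0.904, rho = 0.864), and *Nfia* correlated with *Nfix* (r = 0.807, rho = 0.664). The permutation p of r was 1e-05 for both pairs with *Nfib*, the smallest that 100000 permutations give, and 0.00026 for *Nfia* and *Nfix*. The permutation p of rho was 0.00029, 7e-05, and 0.00814 for these pairs. Without the 2 embryos farthest from the median on the first gene of each pair, r was 0.855 for *Nfia* with *Nfib*, 0.802 for *Nfib* with *Nfix*, and 0.640 for *Nfia* with *Nfix*. Within the 9 females r was 0.901, 0.917, and 0.894, and within the 6 males it was 0.867, 0.940, and 0.704. The correlation of *Nfic* with *Nfia*, *Nfib*, and *Nfix* was 0.138, −0.12, and −0.053, with permutation p of 0.617, 0.668, and 0.852.

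The same 3 members followed the forebrain genes listed above. With the forebrain score, the mean log2 value of the 6 genes in an embryo, r was 0.900 for *Nfia*, 0.947 for *Nfib*, and 0.917 for *Nfix*, each with a permutation p of 1e-05, and rho was 0.914, 0.900, and 0.768 (permutation p of 1e-05, 1e-05, and 0.00126). Without the 2 embryos farthest from the median of the gene, r was 0.822, 0.888, and 0.816. *Nfic* did not follow it (r = 0.00509, rho = 0.0821, permutation p = 0.986 and 0.773). In bulk tissue, fewer cells of a type and less RNA per cell cannot be told apart, and the part of dissection or developmental stage in the shared variation was not tested.

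**Figure D3:**
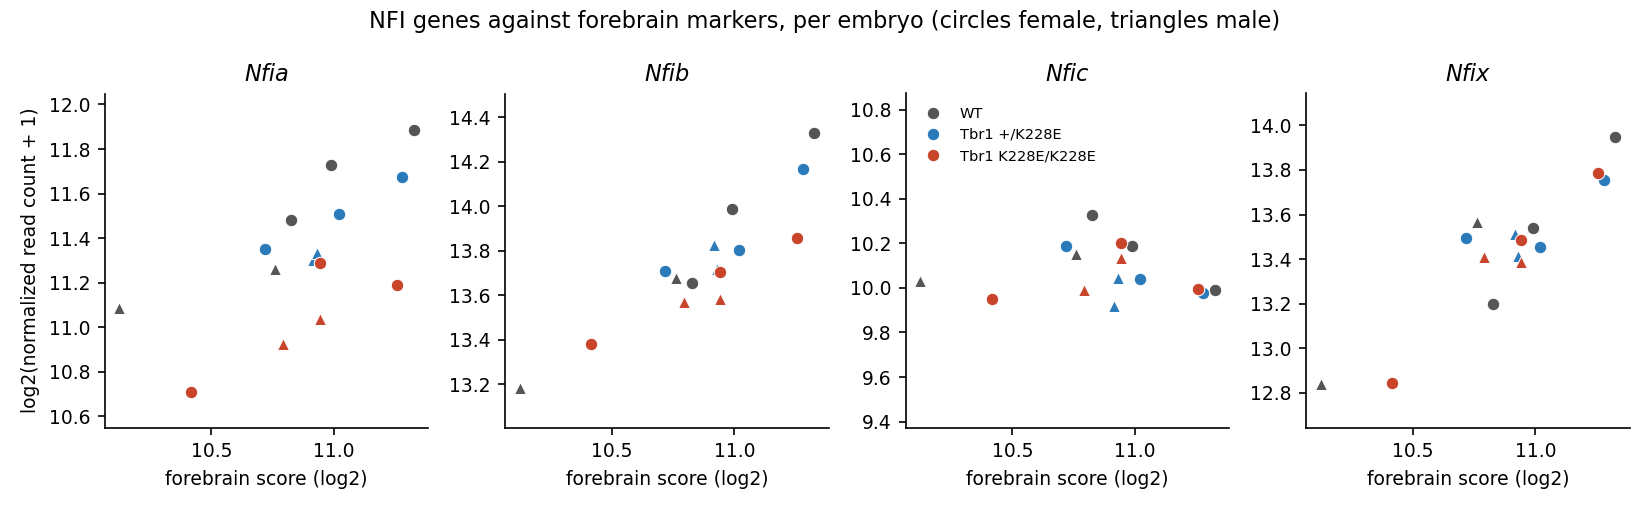
Log2 normalized read count of each NFI gene (vertical axes, each spanning 1.5 units) against the forebrain score of the same embryo (horizontal axes, mean log2 of 6 marker genes), with colors for genotypes, circles for females, and triangles for males. *Nfia*, *Nfib*, and *Nfix* rise from left to right and *Nfic* does not, and at a given score the homozygotes lie low for *Nfia*.

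*Nfia* was also tied to 10 cell cycle genes, among them *Mki67*, *Top2a*, and *Cdk1* (r = 0.929, rho = 0.929, permutation p = 1e-05 for both), and r was 0.926 without the 2 farthest embryos. For *Nfib* r with the cell cycle score was 0.759 (rho = 0.704, permutation p = 0.00043 and 0.00421). For *Nfix* it was 0.657 (rho = 0.507, permutation p = 0.00703 and 0.0568), but fell to 0.262 without the 2 farthest embryos and so rested on them. *Nfic* instead correlated with the meninges score (r = 0.667, rho = 0.714, permutation p = 0.00666 and 0.00388), at 0.543 without the 2 farthest embryos. Of the 22 relations computed among members and with 4 scores, 10 had an adjusted p under 0.05 for r, with the largest of these adjusted values at 0.0155. None of the 4 members was tied to the Hox score past this threshold, but *Nfib* and *Nfix* came near it. For them r was −0.522 and −0.530 (adjusted permutation p = 0.0934 and 0.0866). For *Nfia* and *Nfic* r was −0.323 and 0.427 (adjusted permutation p = 0.314 and 0.173).

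Because the shared variation widens the spread within genotypes, the genotype comparisons were repeated with the forebrain score in the fit, a choice made after these correlations were seen. The mean score was 10.81 (SD 0.44) in WT, 10.97 (SD 0.20) in heterozygous, and 10.87 (SD 0.31) in homozygous embryos. Fitting it therefore moves the log2 fold changes as well as their standard errors. With the score, the standard error of *Nfia* was 0.07, and its log2 fold change between homozygotes and WT embryos was −0.50 (95% interval −0.64 to −0.36). *Nfia* then passed correction over all genes (BH-adjusted p = 0.00247, limma), 1 of 41 genes that did (0.248% of those tested). It passed in each of the 10 fits that left out an embryo of either genotype, with adjusted p between 0.000558 and 0.0166. With the cell cycle score in place of the forebrain score the log2 fold change was −0.39 (BH-adjusted p = 0.00923, limma, among 28 genes or 0.17%). With both scores it was −0.43 (BH-adjusted p = 0.00126, limma, among 58 genes or 0.351%).

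**Figure D4:**
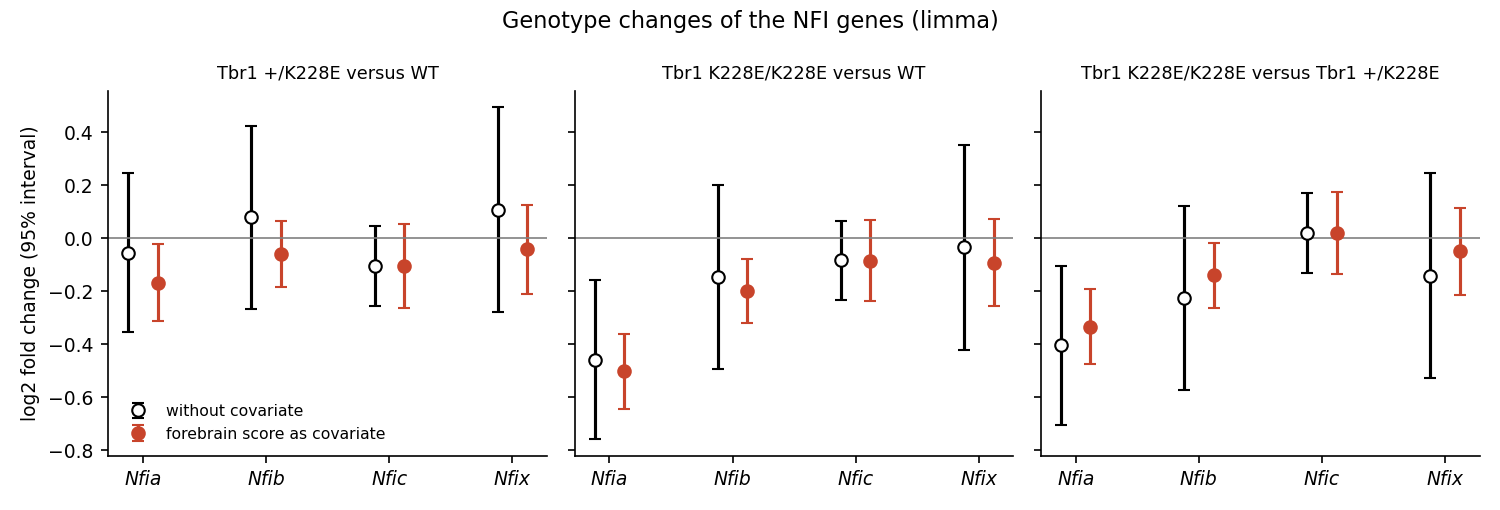
Log2 fold changes of the 4 NFI genes with 95% intervals (vertical axis) in 3 genotype comparisons, without a covariate (open black) and with the forebrain score as covariate (filled red). The intervals of *Nfia*, *Nfib*, and *Nfix* narrow with the score and that of *Nfic* does not, and between homozygotes and WT embryos *Nfia* lies lowest, at −0.46 and −0.50.

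With the forebrain score, *Nfia* between heterozygotes and WT embryos was at −0.17 (95% interval −0.31 to −0.02), against −0.05 without the score. It did not pass correction (BH-adjusted p = 0.9999, limma), and the score itself was higher on average in heterozygotes. Between homozygotes and heterozygotes it was at −0.33 (BH-adjusted p = 0.0814, limma, against 27 genes or 0.164% past the threshold). The trend per mutant copy was −0.25 (BH-adjusted p = 0.00456, limma, among 24 genes or 0.145%). With the cell cycle score the difference between homozygotes and heterozygotes was −0.25 (BH-adjusted p = 0.371, limma, with 0.0848% of genes past the threshold), and with both scores it was −0.27 (BH-adjusted p = 0.0443, limma, with 0.23% past). The trend was −0.19 with the cell cycle score (BH-adjusted p = 0.0158, limma, with 0.109% past) and −0.21 with both (BH-adjusted p = 0.00197, limma, with 0.176% past). The comparisons share their embryos and are not independent. *Nfib* was at −0.20 between homozygotes and WT embryos (95% interval −0.32 to −0.08, BH-adjusted p = 0.409 by limma), *Nfix* at −0.09 (95% interval −0.26 to 0.07), and *Nfic* at −0.08 (95% interval −0.24 to 0.07). In the same fit, all 10 cell cycle genes lay lower in homozygotes than in WT embryos with a median of −0.17, and none of them passed correction.

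Known targets of NFI proteins were described as a list of 14 genes written from general knowledge, of which 13 were high enough to test. The list does not separate targets that NFI proteins activate from those that they repress, and a response to NFI was not tested. Between homozygotes and WT embryos all 13 lay lower, with a median log2 fold change of −0.09 against −0.00 for all tested genes, and 0 passed correction by limma. At an unadjusted p under 0.05 there was 1, *Apcdd1*, an inhibitor of Wnt signaling that is expressed in maturing astrocytes, and 3.23% of all genes reached this. *Apcdd1* was at −0.33 (95% interval −0.62 to −0.04), with counts of 1555 to 2718 in homozygotes and 2263 to 3292 in WT embryos. *Cntn2*, which encodes an axonal adhesion molecule, was at −0.26 (95% interval −0.57 to 0.05). *Cntn2* passed correction with the forebrain score (−0.31, BH-adjusted p = 0.0391, limma), as no other gene of the list did, against 0.248% of all tested genes. It also passed with both scores (−0.34, BH-adjusted p = 0.016, limma), against 0.351% of all tested genes. With the cell cycle score alone it did not pass (−0.21, BH-adjusted p = 0.999, limma). *Apcdd1* was at −0.31 with the forebrain score, −0.32 with the cell cycle score, and −0.17 with both. With both scores, 11 of the 13 targets lay lower.

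Among the targets with a role in progenitors, *Hes1*, a Notch effector that keeps radial glia dividing, was at −0.14, and *Insc*, which orients the division of radial glia, was at −0.39 with a mean count of 34.7. *Sox9*, a factor of glial fate, was at −0.05, and *Ezh2*, the methyltransferase of the Polycomb complex, at −0.03. *Fabp7*, a lipid-binding protein of radial glia, was at −0.06. *Gfap*, the intermediate filament of astrocytes, was at −0.09 with an interval of −0.93 to 0.75, and its mean count was 70.4. The surface proteins *Cdh2* and *Ephb1* were at −0.06 and −0.15, and *Bbx*, *Mmd2*, and *Zcchc24* at −0.07, −0.05, and −0.13. None of these 11 passed correction. *Gabra6*, a receptor subunit of cerebellar granule cells, had a count of at most 2.74 in any embryo and was not tested. Between heterozygotes and WT embryos, 9 of the 13 lay lower and 4 higher, with a median of −0.02, and 0 passed correction by limma.

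Of 10 genes that regulate NFI genes or act with their products, 9 lay lower and 1 higher in homozygotes than in WT embryos, with 0 past correction and 0 at an unadjusted p under 0.05 by limma. With both scores in the fit, 5 of the 10 lay lower. The gene that lay higher was *Pou3f2* (0.13, 95% interval −0.13 to 0.39), a factor of upper-layer neurons. *Pax6*, a regulator of radial glia, was at −0.09 (95% interval −0.31 to 0.12), and *Sox9*, which partners with NFIA, at −0.05.

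The cell types in which the family acts showed the following. Of 12 radial glia genes, 4 lay higher and 8 lower in homozygotes than in WT embryos, none past correction by limma. The 2 with the smallest p were *Ptprz1*, a receptor phosphatase of radial glia, at 0.14 and *Slc1a3*, a glutamate transporter, at −0.13. Of 15 genes of the astrocyte lineage, 13 lay lower, with a median of −0.14, and 0 passed correction. With both the forebrain and the cell cycle score in the fit, 7 of the 15 lay lower and the median was 0.00438, and of the radial glia genes 3 of 12 lay lower. *S100b*, a calcium-binding protein of astrocytes, was at −0.59 (95% interval −1.37 to 0.19), and *Apoe*, a lipid carrier made by glia, was at −0.25 (95% interval −0.75 to 0.25). Of 8 genes of deep-layer neurons, 5 lay higher and 3 lower, with a median of 0.08. *Tbr1* itself rose (log2 fold change 1.69, BH-adjusted p = 0.00437, limma) and *Crym* was at 0.87 (BH-adjusted p = 0.0968, limma). With both scores in the fit, *Tle4* lay lower and *Fezf2*, *Crym*, and *Tbr1* higher past correction by limma, against 0.351% of all tested genes. Of 8 upper-layer genes, 7 lay higher and 1 lower, with a median of 0.08. The lower gene was *Rorb*, a nuclear receptor of layer 4, at −0.33 (BH-adjusted p = 0.727, limma). Its counts were 601 to 781 in homozygotes and 720 to 1005 in WT embryos. With DESeq2, the study counted *Rorb* among the genes lower in homozygotes at an adjusted p under 0.05, and listed it, like *Nfia*, as lower in the earlier *Tbr1* data sets. *Cux2*, a factor of upper layers, was at 0.14.

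*E130114P18Rik*, the gene that meets *Nfia* on the opposite strand, had counts of 197 to 387 in WT, 257 to 302 in heterozygotes, and 219 to 252 in homozygotes. All homozygotes lay below all heterozygotes, as for *Nfia* and for 0.388% of all tested genes. The log2 fold change relative to WT was −0.23 (95% interval −0.53 to 0.07). With the forebrain score it was −0.27 and did not pass correction (BH-adjusted p = 0.699, limma). *Lyl1* was at −0.13 (95% interval −0.70 to 0.44) between homozygotes and WT embryos.

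The genes most like each member over the 15 embryos were found among 13542 genes with a mean count of at least 50, by Pearson's r of values centered on genotype means, given here as a description. For *Nfia* they were *Cdk2ap1* (0.976), *Efnb1* (0.969), and *Trp53* (0.968). For *Nfib* they were *Cebpg* (0.977), *Klhl24* (0.958), and *Cdkn1b* (0.955), and for *Nfix* *Nuak1* (0.968), *E330009J07Rik* (0.963), and *Tiam2* (0.963). For *Nfic* they were *Ano10* (0.922), *Ppib* (0.892), and *Pold4* (0.883). None of these 12 differed between homozygotes and WT embryos past the threshold, and their log2 fold changes lay between −0.07 and 0.04. *Nfib* was gene 123 in the order for *Nfia*, and *Nfix* gene 641, whereas *Nfic* was gene 5513.

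Between females and males, no NFI gene differed past correction. With genotype in the fit, *Nfia* was 0.27 higher in females on the log2 scale (unadjusted p = 0.0167, BH-adjusted p = 0.410, limma), and 11% of all tested genes had an unadjusted p under 0.05 and 0.0788% passed correction. *Nfib* was 0.25, *Nfix* 0.15, and *Nfic* 0.05 higher, none past correction. All 10 cell cycle genes were also higher in females, 7 of them at an unadjusted p under 0.05 by limma and 0 past correction. Sex was balanced over the genotypes, so that a sex term could not move the genotype log2 fold changes. With sex as a covariate, none of the 4 members passed correction between genotypes.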

How the data were processed

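RNA-Seq was carried out on the brains of 15 embryos at E16.5, grouped by their labels. The authors quantified 101-bp paired-end reads with Salmon 0.11.2 (quasi-mapping, GC bias correction, GRCm38), summed them to genes with tximport, and divided them by DESeq2 1.22.2 size factors. The deposited values are thus a normalized signal and not whole counts (1.84% of positive values lay within 0.01 of a whole number), so no count model was fitted. Identifiers of 19469 genes matched GENCODE M21.

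limma 3.58.1 in R 4.3.3 was run on log2(value + 1) of 16507 genes (mean count 5 or more), with all 15 embryos in the fit and a Benjamini–Hochberg threshold of 0.05. The pseudocount slightly understates fold changes of low genes. The fit was tested on simulated data. Ratios were compared by two-sided exact permutation tests, and correlations by 100000 permutations (SciPy 1.17.1). Scores are mean log2 values of marker genes, and 1 gene of the forebrain list is not reported here and was left out of its score. Stretches of 31 bases were compared because quasi-mapping indexes commonly use this length. P-values measure the spread between embryos. Members and gene lists were chosen with earlier results of these data known. Named genes are the members, *Tbr1*, the NFI targets, the genes past the threshold or with the 2 smallest p-values of each other list, the 3 genes most like each member, and overlapping genes.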

Additional observations from a re-analysis of the deposited data

Results flagged for a closer look

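In 3 of 30 groups of 5 embryos, the highest or lowest embryo lay farther from the rest than Dixon's 95% critical value of 0.710 allows, and chance gives about 1 in 20 such groups. The groups hold the same genes, their ratios, and the same embryos, and so are not independent. In *Tbr1* +/K228E, replicate 2 was far above the other embryos for *Nfib*, with 18374 normalized reads (gap over range 0.777), and for *Nfix*, with 13826 (gap over range 0.737). The same embryo had the highest forebrain sum of all, at 26609.5. In *Tbr1* K228E/K228E, replicate 2 had the highest ratio of *Nfib* to *Nfix*, at 1.45 (gap over range 0.717), and the lowest forebrain sum of its genotype, at 12621. The part of the forebrain share in these values was not tested.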

How the results depend on the processing

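No alternative other than the forebrain and cell cycle scores, which were chosen after seeing the data, moved an NFI gene past the threshold between genotypes. *Nfia* in homozygotes relative to WT was between −0.50 and −0.39 over 16 alternatives (BH-adjusted p from 0.00126 to 1.00, limma, under the threshold only with the forebrain score, the cell cycle score, or both) and between −0.56 and −0.36 without 1 embryo. In heterozygotes relative to WT it ran from −0.16 to 0.05 without 1 embryo, and was 0.01 without WT replicate 2 and 0.05 without WT replicate 3. With both scores it also passed between homozygotes and heterozygotes (−0.27, BH-adjusted p = 0.0443, limma), which with the forebrain score alone it did only without homozygous replicate 1 (−0.39, BH-adjusted p = 0.0169, limma).

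Counts of genes past correction moved by over 1.5 times as follows. Between homozygotes and WT, 21 became 12 with the 2 genotypes alone, 43 with an empirical null, 41 with the forebrain score, 58 with both scores, and 12 to 21 without 1 embryo (12 or 13 without WT replicate 1 or 2, or homozygous replicate 3 or 4). Between homozygotes and heterozygotes, 13 became 0 with an empirical null (544 at an unadjusted p under 0.05), 21 with the Hox score, 27 with the forebrain score, 38 with both scores, and 6 to 8 without any 1 embryo. For the trend, 12 became 29 with an empirical null, 24 with the forebrain score, 29 with both scores, and 4 to 12 without 1 embryo, with counts under 8 without WT replicate 1 or any homozygote. Between heterozygotes and WT, 0 became 1 (*Tbr1*) with the forebrain score and 1 with both scores. Between the sexes, 13 became 7 with an empirical null and 10 to 24 without 1 embryo (24 without homozygous replicate 2). The cause was not tested.

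A fit with a block for replicate number left 2 genes past correction between homozygotes and heterozygotes and 7 in the trend, and no NFI gene. Embryos of the same number (and so of the same sex) correlated with r of −0.232 to 0.506 in their deviations from the genotype means. The median was 0.158 over these 15 pairs, against −0.0188 over 60 other pairs. Whether the numbers pair embryos was not tested. Of the 12 levels per kb, 7 moved by over 1 SD with the length of the longest transcript.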
